A study of Homo sapiens with 14 samples.

Results

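The matrilins are 4 secreted proteins of the extracellular matrix, encoded by MATN1, MATN2, MATN3 and MATN4. Their genes were found by symbol among the 60587 genes of each deposited table, and all 4 passed the filter on low counts. They were followed through cartilage formation by WA01, an established human embryonic stem cell line also called H1, which was kept as pellets in chondrogenic medium. RNA of whole pellets was sequenced at day 21 (4 libraries), day 30 (5 libraries) and day 45 (5 libraries), and the comparisons ask how the pellets differ between these stages. All libraries come from this 1 line in the same kind of medium, and no other condition was used here. The library titled day 45 replicate 1 has 30 days in its treatment label and was kept at day 45 by its title. Whether replicates were separate cultures is not in the labels, and a p-value therefore covers the spread among these libraries alone, which may be technical.

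Matrilins are built from von Willebrand factor A domains, repeats of the epidermal growth factor type and a C-terminal coiled coil, through which chains assemble into oligomers. They act as adaptors that link collagen fibrils to aggrecan and other matrix components. Matrilin-1 and matrilin-3 are typical of cartilage, whereas matrilin-2 and matrilin-4 are also made in many other tissues. Mutations in MATN3 are a cause of multiple epiphyseal dysplasia, an inherited disorder of growth cartilage.

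Promoter windows are shown for MATN3 and MATN4, the only matrilin genes with windows in the promoter set used here. Each runs 5′ to 3′ from 250 bases before a transcription start through the first 50 bases of the transcript (RefSeq, GRCh38.p14, minus strand). MATN3 is at chr2:20012619-20012918 and MATN4 at chr20:45308250-45308549, the more downstream of 2 starts that RefSeq gives for it. Capitals mark motif matches.
MATN3: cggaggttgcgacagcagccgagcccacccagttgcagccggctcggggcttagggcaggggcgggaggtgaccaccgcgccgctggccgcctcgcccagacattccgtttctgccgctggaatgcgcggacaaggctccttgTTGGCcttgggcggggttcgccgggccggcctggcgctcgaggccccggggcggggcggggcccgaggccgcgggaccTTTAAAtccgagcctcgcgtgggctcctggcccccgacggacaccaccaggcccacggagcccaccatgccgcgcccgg
MATN4: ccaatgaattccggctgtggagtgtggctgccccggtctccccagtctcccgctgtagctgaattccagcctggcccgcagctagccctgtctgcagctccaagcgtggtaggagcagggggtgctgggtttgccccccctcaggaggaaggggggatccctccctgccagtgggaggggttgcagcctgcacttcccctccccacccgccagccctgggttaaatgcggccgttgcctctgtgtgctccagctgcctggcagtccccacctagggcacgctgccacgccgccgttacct

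Both windows are rich in G and C, at 75% for MATN3 and 67% for MATN4, against a median of 58.7% over 35116 promoter windows of the same length. The letters searched, on both strands, were the SOX factor cores ACAATG and, as a second core, ACAAAG, the TATA-type motif TATAAA, its variant TTTAAA and, for nuclear factor I, TTGGC. The MATN3 window holds 1 TTTAAA, which reads the same on both strands and starts 29 bases before the RefSeq transcription start, 20012668. In GENCODE 29 the longer coding transcript of MATN3 starts upstream of this, at 20012694, so the distance depends on the start used. TTTAAA is in 12.2% of all windows and was added after the sequence was seen. The MATN3 window also holds 1 TTGGC, 107 bases before the RefSeq start, a motif found in 45.6% of all windows. No searched motif is in the MATN4 window shown, but the window of its other start, with 60.7% G and C, holds 1 TTGGC, 162 bases before that start. None of the 3 windows holds ACAATG, which is in 10.8% of all windows, or ACAAAG, in 16.1%, or TATAAA, in 11.5%.

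The 4 genes lie on different chromosomes (GRCh38, coordinates of GENCODE 29). MATN1 (ENSG00000162510) spans chromosome 1, 30711277 to 30723587, on the minus strand, and its 1 coding transcript has 8 exons. MATN2 (ENSG00000132561) spans chromosome 8, 97868840 to 98036716, on the plus strand. MATN3 (ENSG00000132031) spans chromosome 2, 19992111 to 20012694, on the minus strand, with 8 exons in its longer coding transcript. MATN4 (ENSG00000124159) spans chromosome 20, 45293445 to 45308529, on the minus strand, and all 5 of its transcripts are coding.

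The pattern over time differed among the 4 genes. MATN1, the cartilage matrilin whose protein was the first of the family to be described, was high at day 30 and low at days 21 and 45. MATN3 was higher at each later day. MATN4 rose by day 30. At day 45 it was back near its day 21 level in CPM but was below that level in TPM, measures that are described below. MATN2 was the least abundant member and was lower at day 45 than at day 21.

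**Figure D1:**
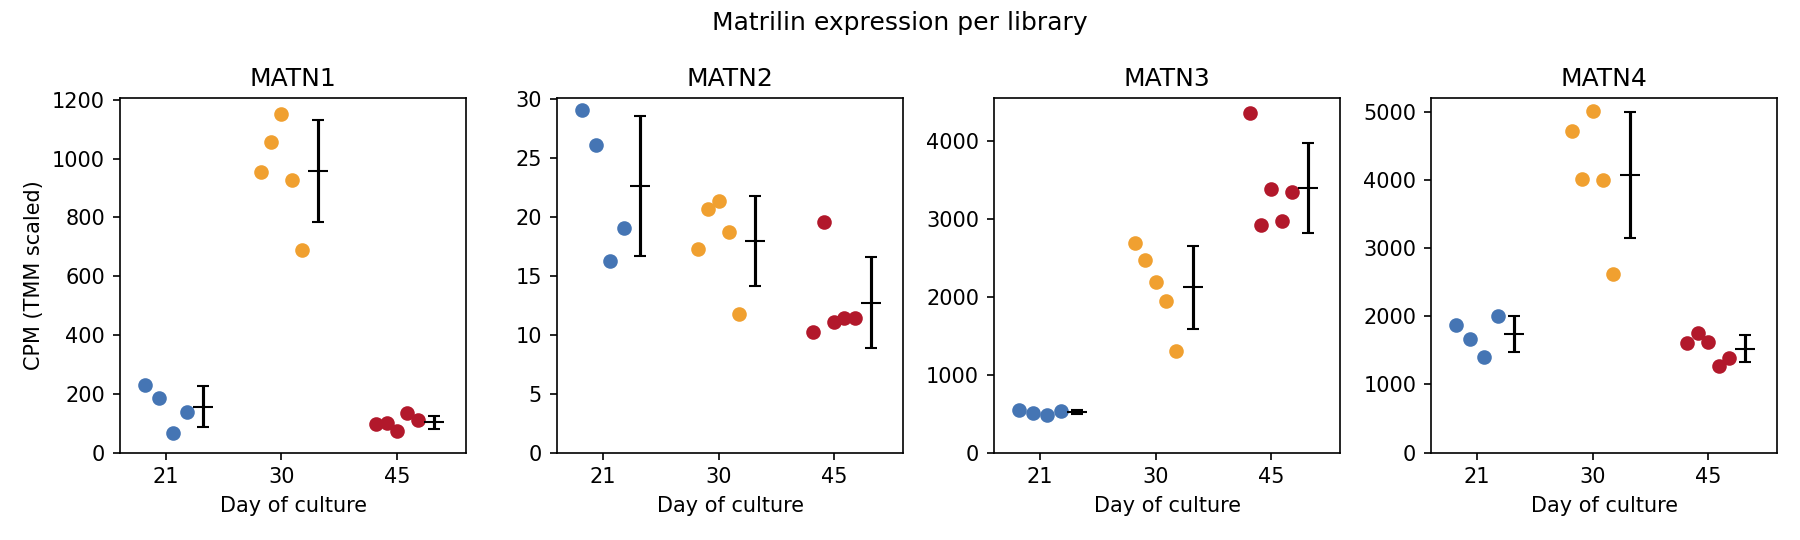
Each panel plots 1 matrilin gene, with CPM after TMM scaling on a linear vertical axis that starts at 0 and the day of culture on the horizontal axis. Each point is 1 library, and the black bar is the mean with its SD (n = 4 at day 21, n = 5 at days 30 and 45). MATN1 and MATN4 are highest at day 30, MATN3 at day 45 and MATN2 at day 21.

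The libraries held 18183776 to 33660704 expected counts, and 17838 genes passed the filter and were tested. Levels are given as CPM (counts relative to library size, after TMM scaling) to compare a gene between libraries, and as TPM (which also accounts for transcript length) to compare genes. Changes are log2 fold changes from 1 edgeR fit over all libraries, with adjusted p below 0.05 as the threshold. Against this threshold 57.7% of all tested genes changed between days 21 and 45, 56.3% between days 30 and 45 and 54.4% between days 21 and 30, so a call by itself is common in these data. Chondrocyte markers summed to 42340 to 54656 CPM at day 21, 99770 to 241011 CPM at day 30 and 199116 to 312321 CPM at day 45, most of it COL2A1. None of these 8 genes was at 0, and 7 rose and 1 fell between days 21 and 45, where 27.1% of all tested genes rose and 30.5% fell. Day 30 replicates 3 to 5 stood apart from the other libraries. The Spearman correlation, across genes, of a library's deviation from the mean with transcript length was -0.43, -0.52 and -0.47 in them, whereas day 30 replicates 1 and 2 had -0.01 and -0.07, and libraries of days 21 and 45 had 0.12 to 0.26. Whole pellets were sequenced, so fewer cells of a type and less RNA per cell cannot be told apart.

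MATN1 had 231, 187, 66.9 and 139 CPM in the day 21 libraries and 956, 1058, 1152, 929 and 690 CPM in the day 30 libraries. At day 45 it had 98, 100, 73.1, 134 and 112 CPM. Every day 30 library lay above every library of the other days, while days 21 and 45 overlapped. Of all tested genes, 20% were likewise higher without overlap at day 30 than at day 21 (22.4% were lower), and 18.6% were lower without overlap at day 45 than at day 30. The change from day 21 to day 30 was a log2 fold change of 2.62 ± 0.29 (SE), or 6.14-fold (edgeR adjusted p = 1.42e-06). Of all tested genes, 27.2% were called higher at day 30 than at day 21. Between day 30 and day 45 MATN1 fell by 3.21 ± 0.27 (SE) on the log2 scale, leaving 0.108 of the day 30 level (edgeR adjusted p = 1.44e-07), and 28.7% of all genes were called lower in that comparison. The later change minus the earlier change was -5.83 ± 0.43 (SE; edgeR adjusted p = 8.52e-08), which ranked 80 of 17838 from the most negative. Of all genes, 52.7% were called for this difference, which was positive in 25.3% of all genes and negative in 27.5%. Both changes use the day 30 libraries, so they are not independent of each other. Without day 30 replicates 3 to 5 the changes were 2.69 and -3.30.

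At day 45 MATN1 averaged 104 ± 22.3 CPM (SD, n = 5), against 156 ± 70.3 CPM at day 21 (SD, n = 4), a log2 fold change of -0.59 ± 0.26 (SE) that missed the threshold (edgeR adjusted p = 0.0647). Day 21 replicate 3, at 66.9 CPM, was the lowest MATN1 value of the series in CPM, although that library held 29463483 counts. In TPM it was at 60.9, above day 45 replicates 1 and 3, at 56.9 and 50.3. Without day 21 replicate 3 the change was -0.84 (edgeR adjusted p = 0.00169), and without day 45 replicate 4 it was -0.70 (edgeR adjusted p = 0.0406). DESeq2, limma voom and limma on TPM also called it, with values of -0.58 to -0.88. Within a day MATN1 was most variable at day 21, where the SD was 45.1% of the mean, in place of 18.1% at day 30 and 21.5% at day 45.

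MATN1 shares sequence with MATN1-AS1, a long non-coding gene on the opposite strand, over 836 bases of exon. The library kit does not mark strand, so reads from this stretch cannot be assigned to either gene by strand. MATN1-AS1 averaged 3.64 ± 1.41 CPM at day 21 (SD, n = 4), 9.05 ± 1.25 CPM at day 30 and 4.8 ± 1.03 CPM at day 45 (SD, n = 5 each). It rose by 1.31 ± 0.23 (SE) between days 21 and 30 (edgeR adjusted p = 1.21e-04) and fell by 0.91 ± 0.21 (SE) between days 30 and 45 (edgeR adjusted p = 0.00151). Per length, MATN1 was 11.6 to 103 times as abundant as MATN1-AS1 in single libraries. The expected counts of both genes were not whole (within 0.005) in any of the 14 libraries, which was also so for MATN3, whose antisense neighbour shares no exon bases with it. Whether reads were divided between MATN1 and MATN1-AS1 was not tested.

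The deposited table also gives a transcript length for each gene and library, averaged by the estimated abundance of its transcripts. For MATN1 this length was 2637 ± 60.6 bases at day 21 (SD, n = 4), 2789 ± 105 bases at day 30 and 2566 ± 142 bases at day 45 (SD, n = 5 each). Its coding transcript has 3832 bases and its 2 non-coding transcripts have 941 and 943, which puts the coding transcript at 49.2% to 68.1% of MATN1 molecules. The ranges of the 3 days overlapped, and the estimate rests on short transcripts that share exons with the long one.

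MATN3 was at 547, 512, 483 and 533 CPM in the day 21 libraries, at 2691, 2473, 2193, 1948 and 1309 CPM at day 30, and at 4365, 2920, 3387, 2979 and 3346 CPM at day 45. The 3 days did not overlap. Of all genes, 25.3% were higher without overlap at day 45 than at day 21 (26.2% were lower), and 19.8% at day 45 than at day 30. Day 21 was the most even, with an SD of 5.38% of the mean, whereas the highest day 30 library, at 2691 CPM, came close to the lowest day 45 library, at 2920 CPM. From day 21 to day 30 the gene rose by 2.03 ± 0.18 (SE), or 4.09-fold (edgeR adjusted p = 1.16e-07). From day 30 to day 45 it rose by 0.68 ± 0.16 (SE), or 1.6-fold (edgeR adjusted p = 0.00211), where 27.6% of all genes were called higher. At day 45 it was 6.55-fold above day 21 (2.71 ± 0.19, SE; edgeR adjusted p = 2.10e-09), and 27.1% of all genes were called higher there. The later change minus the earlier change was -1.35 ± 0.28 (SE; edgeR adjusted p = 7.78e-04), but on log2(TPM + 1) it was -0.70 and not called (limma adjusted p = 0.0856).

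The later rise of MATN3 depended on which libraries stood for day 30. Without day 30 replicates 3 to 5 it was 0.39 (edgeR adjusted p = 0.0432), and with day 45 replicate 1 placed at day 30, as its treatment label reads, it was 0.34 and did not pass (edgeR adjusted p = 0.257). Day 45 replicate 1 had the most MATN3 of all 14 libraries, also per length, with 3365 TPM, and the most COL2A1, with 235088 CPM. Its MATN1, at 98 CPM, and its MATN4, at 1604 CPM, lay among the values of the other day 45 libraries. Both were below every day 30 library, at 690 to 1152 CPM for MATN1 and 2622 to 5013 CPM for MATN4. Whether the title or the treatment label of this library is right was not tested. Without that library the rise stayed called, as it did without any other single library, at 0.56 to 0.78.

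MATN4 was at 1873, 1664, 1403 and 2008 CPM in the day 21 libraries and at 4709, 4019, 5013, 3999 and 2622 CPM in the day 30 libraries. The day 45 libraries had 1604, 1753, 1623, 1267 and 1385 CPM. In CPM every day 30 library again lay above all others, although replicate 5 was well below its group. In TPM that library, at 1976, lay below day 21 replicates 1 and 4, at 1997 and 2135, so days 30 and 21 overlapped. The gene rose by 1.23 ± 0.17 (SE), or 2.34-fold, by day 30 (edgeR adjusted p = 1.55e-05) and fell by 1.42 ± 0.16 (SE) between days 30 and 45, leaving 0.375 of the day 30 level (edgeR adjusted p = 2.30e-06). Its later change minus its earlier change was -2.65 ± 0.27 (SE; edgeR adjusted p = 1.41e-06). Among all tested genes, 1959 (11%) were called higher at day 30 than at day 21 and lower at day 45 than at day 30, as MATN1 and MATN4 were, and 1001 (5.61%) were called higher in both intervals, as MATN3 was.

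Between day 45 and day 21 MATN4 differed by -0.19 ± 0.17 (SE), which did not pass (edgeR adjusted p = 0.358). In TPM, however, every day 45 library, at 1084 to 1477, lay below every day 21 library, at 1692 to 2135. Limma on log2(TPM + 1) gave -0.63 (limma adjusted p = 0.00614). On that scale the median change of all tested genes was -0.34, in place of -0.05 with TMM, so MATN4 lay -0.29 from the median. For day 30 against day 21 the same median was -0.35, in place of 0.02, and MATN1, MATN3 and MATN4 were still called higher on the TPM scale, by 2.18, 1.46 and 0.74 (limma adjusted p = 4.69e-06, 1.42e-05 and 0.00201).

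MATN4 overlaps RBPJL, a transcription factor gene on the opposite strand, over 77 bases of exon. RBPJL was at 4.14 ± 0.83 CPM at day 21 (SD, n = 4), 13.4 ± 2.52 CPM at day 30 and 2.23 ± 0.532 CPM at day 45 (SD, n = 5 each), so it too was highest at day 30. It rose by 1.70 ± 0.19 (SE) by day 30 (edgeR adjusted p = 1.38e-06) and fell by 2.59 ± 0.19 (SE) afterwards (edgeR adjusted p = 2.40e-08). Its level was small beside that of MATN4, and both genes had whole expected counts in all 14 libraries (within 0.005 of a whole number). How far reads of the shared bases enter the RBPJL values was not tested.

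MATN2 was scarce, with 29.1, 26.1, 16.3 and 19.1 CPM in the day 21 libraries, 17.3, 20.7, 21.4, 18.7 and 11.8 CPM at day 30, and 10.2, 19.6, 11.1, 11.4 and 11.4 CPM at day 45. Single libraries of all 3 days overlapped. The day 45 level was 0.562 of the day 21 level (log2 fold change -0.83 ± 0.21, SE; edgeR adjusted p = 0.00286), and 30.5% of all genes were called lower in this comparison. The difference between days 30 and 21, at -0.34 ± 0.21 (SE), did not pass (edgeR adjusted p = 0.188). Between days 45 and 30 it was -0.50 ± 0.20 (SE), just past the threshold (edgeR adjusted p = 0.0475), and leaving out any of 10 single libraries ended the call, with adjusted p up to 0.11. On the TPM scale the difference between days 30 and 21 was called (-0.61; limma adjusted p = 0.0186), and that between days 45 and 30 was not (-0.43; limma adjusted p = 0.0788). Each library held 261 to 1047 expected counts of MATN2, against 30787 to 123051 of MATN4. The long MATN2 gene also contains part of RPL30, a ribosomal protein gene on the opposite strand, with no shared exon bases. An antisense gene (ENSG00000227210) overlaps MATN3 in the same way, without shared exon bases, and had 1.87 to 8.32 CPM.

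**Figure D2:**
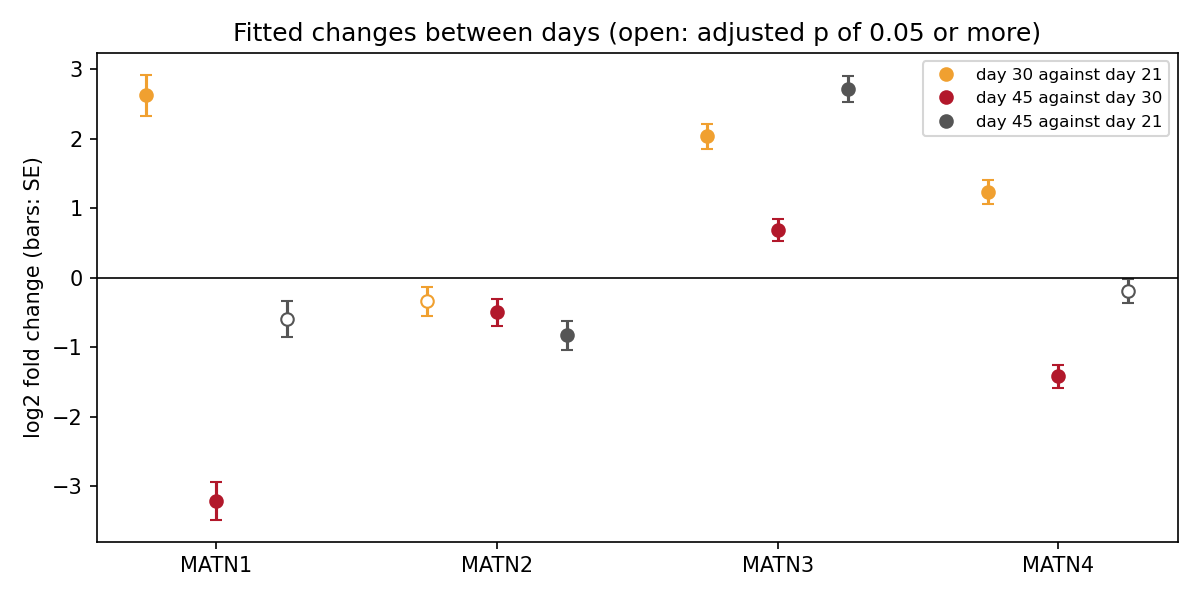
Log2 fold changes of the 4 matrilin genes (vertical axis) from the edgeR fit, for day 30 against day 21, day 45 against day 30 and day 45 against day 21, with bars for the SE. Filled points passed the test and open ones did not. MATN1 has the widest swing, at 2.62 and -3.21, while MATN3 is positive in all comparisons.

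Per length, MATN4 led the family at days 21 and 30 and MATN3 at day 45. In TPM, MATN4 averaged 1921 ± 190 at day 21 (SD, n = 4), 3292 ± 865 at day 30 and 1246 ± 157 at day 45 (SD, n = 5 each). MATN3 averaged 581 ± 24.7 TPM, 1677 ± 570 TPM and 2712 ± 379 TPM at the same days. MATN1 averaged 130 ± 56.4 TPM, 556 ± 119 TPM and 66.3 ± 15.6 TPM, and MATN2 14.8 ± 3.4 TPM, 9.37 ± 2.12 TPM and 6.73 ± 1.97 TPM. The order MATN4, MATN3, MATN1, MATN2 held in every library of days 21 and 30, and the order MATN3, MATN4, MATN1, MATN2 in every library of day 45. At day 45 MATN3 ranked 39 to 68 among all genes of a library by TPM, whereas MATN2 ranked 8048 to 10359.

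The 4 genes together summed to 2324 to 2830 TPM at day 21, 3314 to 7083 TPM at day 30 and 3663 to 4670 TPM at day 45. MATN4 supplied 72.5% ± 2.13 of the sum at day 21 (SD, n = 4), 59.6% ± 2.33 at day 30 and 31% ± 4.04 at day 45 (SD, n = 5 each). The share of MATN3 was 22.1% ± 1.63, 30% ± 2.98 and 67.1% ± 4.14 at these days, with no overlap between them. MATN1 supplied 4.83% ± 1.88, 10.2% ± 1.11 and 1.67% ± 0.514, and MATN2 less than 1% in every library. Ratios within a library do not depend on how libraries are scaled to each other. The ratio of MATN3 to MATN4 was 0.267 to 0.331 in day 21 libraries, 0.425 to 0.589 in day 30 libraries and 1.64 to 2.71 in day 45 libraries, again without overlap. MATN3 was 3.2 to 9.19 times as abundant as MATN1 in day 21 libraries, 2.49 to 3.95 times in day 30 libraries and 27.2 to 59.1 times in day 45 libraries.

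**Figure D3:**
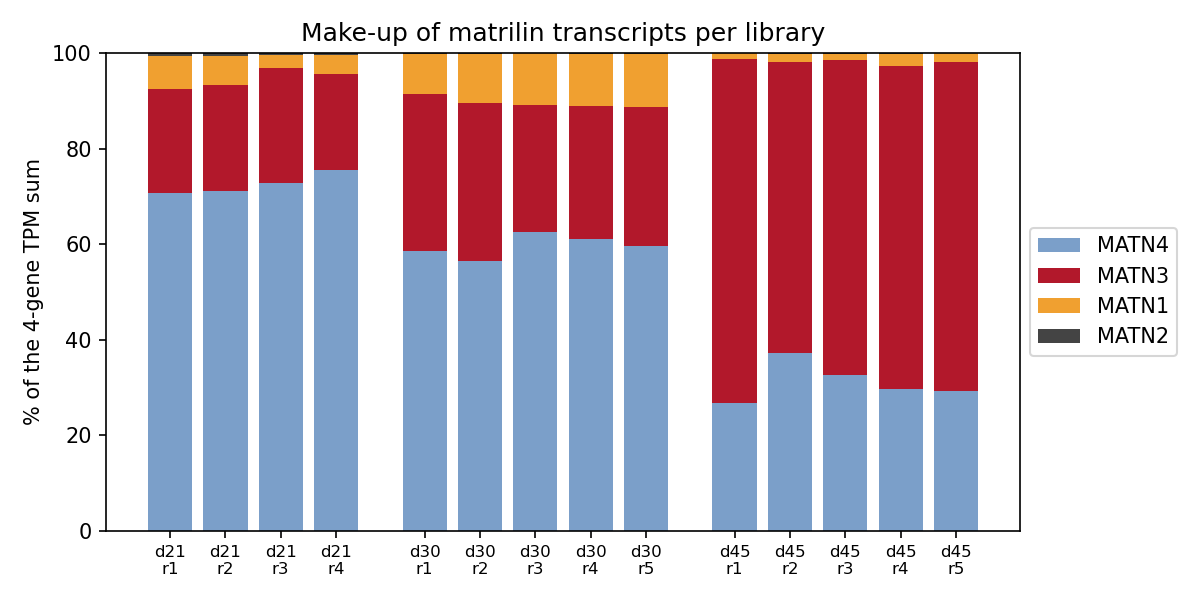
Each bar is 1 library (day and replicate below it), split by the share of MATN4, MATN3, MATN1 and MATN2 in the TPM sum of the 4 genes, on a vertical axis in percent. MATN4 makes up 70.7% to 75.4% of the sum at day 21, and MATN3 60.9% to 72.1% at day 45.

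Day 30 replicate 5 was the lowest of its group for all 4 matrilin genes in CPM. It was also the lowest of that day for COL2A1, the main collagen of cartilage, at 66537 CPM against 99223 to 158302 CPM in the other day 30 libraries, and for ACAN, the gene of the proteoglycan aggrecan, at 8436 CPM against 11716 to 25943 CPM. The make-up of the family in this library was like that of the others, with 59.6% MATN4, 29.1% MATN3 and 11.1% MATN1. Set against COL2A1, day 21 libraries had 1.63 to 1.87 MATN3 counts per 100 COL2A1 counts, day 30 libraries 1.53 to 1.97 and day 45 libraries 1.86 to 2.17. MATN4 instead had 5.3 to 6.26, 2.84 to 4.03 and 0.682 to 1.29 counts per 100 COL2A1 counts, and MATN1 had 0.252 to 0.686, 0.604 to 1.04 and 0.0417 to 0.0976.

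The genes with the most alike profiles were sought among 9174 genes with at least 10 CPM on average, by the root mean square difference between log2 CPM profiles over the 14 libraries, each centred on its own mean. The nearest gene to MATN3 was COL2A1, at a difference of 0.15, followed by the calcium channel gene TRPV4 (0.20), PCOLCE2, which encodes an enhancer of procollagen processing (0.20), and the cell surface proteoglycan gene GPC1 (0.21). The median over the genes compared was 1.14. For MATN4 the nearest were CHADL, a relative of the cartilage protein chondroadherin (0.21), ITM2A (0.23), COL9A2, a chain of collagen IX (0.25), and GYG2, a glycogenin (0.25), against a median of 0.78. CHADL averaged 120, 229 and 101 CPM at days 21, 30 and 45. MATN1 had no gene as close by this measure, which is not scaled to a gene's own swing. The root mean square of a profile about its own mean was 1.51 for MATN1, 1.13 for MATN3, 0.68 for MATN4 and 0.47 for MATN2. The nearest to MATN1 were ASIC1, an acid-sensing ion channel gene (0.48), CARNS1, a carnosine synthase gene (0.53), SYTL1 (0.64) and CPNE5 (0.67). The median was 1.59, and MATN4 was at 0.91 from MATN1. ASIC1 averaged 26.3, 85.1 and 15 CPM and CARNS1 10.7, 56.3 and 9.31 CPM at the 3 days. The nearest genes to MATN2 were SLC12A7, EMILIN3, PDGFRB and TSPAN14 (0.25 to 0.27, median 0.59), and none of them was among the nearest 20 without day 30 replicates 3 to 5. These differences describe the libraries, which share the 3 days as their main source of variation.

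The gene lists share members, so their counts are not independent. Among the partners counted next, COMP and the collagen IX chains are also dysplasia genes. The collagen VI chains are also counted among proteins with von Willebrand factor A domains, and COL2A1, ACAN and COL9A1 among chondrocyte markers. Of 15 genes for proteins that bind matrilins or link them to fibrils, 12 rose and 3 fell between days 21 and 45, where 27.1% of all tested genes rose and 30.5% fell. Their median log2 fold change was 1.08, against -0.05 over all tested genes. Between days 21 and 30, 11 rose, 3 fell and 1 did not pass (median 0.64, against 0.02), where 27.2% of all genes rose and 27.1% fell. Between days 30 and 45, 7 rose, 3 fell and 5 did not pass (median 0.46, against -0.04), where 27.6% of all genes rose and 28.7% fell. With day 45 replicate 1 placed at day 30, only 1 of the 15 rose between days 30 and 45 and 3 fell. With limma on the log2(TPM + 1) scale, 10 rose and 3 fell between days 21 and 45, and 7 rose and 4 fell between days 21 and 30.

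COMP, a pentameric matrix protein that binds collagens and matrilins, averaged 78.2 ± 10.2 CPM at day 21 (SD, n = 4), 444 ± 154 CPM at day 30 and 2442 ± 799 CPM at day 45 (SD, n = 5 each). It rose by 4.96 ± 0.30 (SE) over the whole interval (edgeR adjusted p = 4.72e-10). ACAN rose by 3.61 ± 0.30 (SE; edgeR adjusted p = 1.95e-08), FN1, the gene of fibronectin, by 2.67 ± 0.22 (SE) and COL6A1, a chain of collagen VI, by 1.15 ± 0.13 (SE). COL2A1 rose by 2.03 ± 0.25 (SE) between days 21 and 30 (edgeR adjusted p = 3.47e-06), as MATN3 did by 2.03, and by 0.46 ± 0.22 (SE) between days 30 and 45, which did not pass (edgeR adjusted p = 0.0889) except with DESeq2, with limma voom and without day 30 replicate 1 (adjusted p = 0.0244 to 0.0424). FBN2, the gene of fibrillin-2, a microfibril protein, fell by 1.86 ± 0.19 (SE) between days 21 and 45.

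The 3 chains of collagen IX, which sits on the surface of collagen II fibrils and carries matrilin-3, were higher at day 30 than at day 21. The log2 fold changes were 1.74 ± 0.22 (SE) for COL9A1, 1.16 ± 0.16 for COL9A2 and 1.67 ± 0.21 for COL9A3 (edgeR adjusted p = 4.38e-06, 1.14e-05 and 5.25e-06). All were lower at day 45 than at day 30, with COL9A2 at -1.72 ± 0.15 (SE; edgeR adjusted p = 1.36e-07), COL9A1 at -0.65 ± 0.20 (SE; edgeR adjusted p = 0.00973) and COL9A3 at -0.59 ± 0.19 (SE; edgeR adjusted p = 0.0154). COL9A1 was not called on the TPM scale for this comparison (limma adjusted p = 0.0689). COL9A2 averaged 2915 ± 288 CPM at day 21 (SD, n = 4), 6511 ± 1153 CPM at day 30 and 1980 ± 361 CPM at day 45 (SD, n = 5 each), and MATN4 had 56 to 66.2, 52.5 to 66.7 and 61.9 to 101 counts per 100 COL9A2 counts at these days. The 5 other genes of multiple epiphyseal dysplasia tested beside MATN3 were COMP, the 3 collagen IX chains and the sulphate transporter gene SLC26A2. All 5 rose between days 21 and 30, where 27.2% of all genes did. By limma on log2(TPM + 1), which called 1788 of 17838 genes higher in that interval, 4 of the 5 were also called higher. Between days 21 and 45, 4 rose, among them SLC26A2 by 2.15 ± 0.30 (SE), and COL9A2 fell by 0.56 ± 0.15 (SE; edgeR adjusted p = 0.00504). Over all tested genes 27.1% rose and 30.5% fell there.

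**Figure D4:**
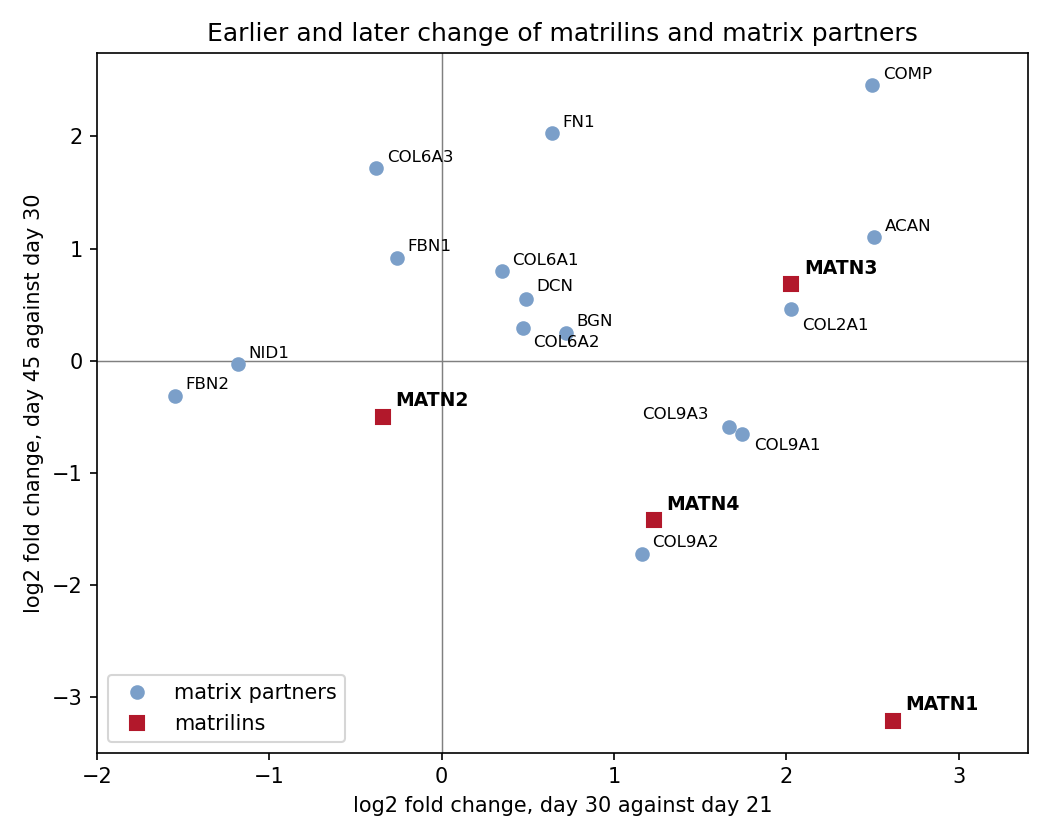
Log2 fold change of day 30 against day 21 (horizontal axis) and of day 45 against day 30 (vertical axis) for the 4 matrilin genes (squares) and 15 matrix partners (circles); both axes use the day 30 libraries. MATN3 lies beside COL2A1, at 2.03 and 0.68, and MATN4 beside COL9A2, at 1.23 and -1.42.

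Other secreted proteins with von Willebrand factor A domains did not move in 1 direction. Of 17 such genes, 13 passed the filter, and 4 of these rose, 5 fell and 4 did not pass between days 21 and 45 (median 0.12). Of all tested genes, 27.1% rose and 30.5% fell between these days (median -0.05). COL22A1, a collagen of tissue junctions, averaged 3.1 ± 1.07 CPM at day 45 (SD, n = 5), against 142 ± 12.5 CPM at day 21 (SD, n = 4), and fell by 5.51 ± 0.21 (SE; edgeR adjusted p = 3.88e-12). COL14A1, a collagen of the fibril surface, fell by 1.82 ± 0.21 (SE) and VWA1, which encodes a protein of the matrix around chondrocytes, by 1.25 ± 0.15 (SE). COL7A1, the anchoring fibril collagen, rose by 3.80 ± 0.36 (SE), and COL6A3, a chain of collagen VI, by 1.35 ± 0.16 (SE). The 4 that did not pass the filter were VWA2, COL6A5, COL6A6 and VWF.

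Among 8 transcription factor genes of the families that bind matrilin promoters, 3 rose, 2 fell and 3 did not pass between days 21 and 45 (median -0.01). Over all tested genes 27.1% rose and 30.5% fell between these days. Between days 21 and 30, when MATN1, MATN3 and MATN4 rose, 3 of these factors rose and 5 fell (median -0.54). In that interval 27.2% of all tested genes rose and 27.1% fell. With the offset for transcript length 3 of the factors rose and 3 fell, where 4694 of 17838 genes rose and 4404 fell. With limma on log2(TPM + 1) 1 of the factors rose and 6 fell, where 1788 of all genes rose and 9019 fell. SOX9, the master regulator of chondrocytes, averaged 382 ± 45.5 CPM at day 21 (SD, n = 4), 603 ± 132 CPM at day 30 and 661 ± 34 CPM at day 45 (SD, n = 5 each). It was called higher at day 30 than at day 21 (0.66 ± 0.14, SE; edgeR adjusted p = 9.18e-04) and at day 45 than at day 21 (0.79 ± 0.14, SE; edgeR adjusted p = 1.41e-04), but not on log2(TPM + 1) (0.18 and 0.35; limma adjusted p = 0.382 and 0.0822). SOX8, its close relative, rose by 1.16 ± 0.10 (SE) between days 21 and 45 and NFIC, of the nuclear factor I family, by 1.32 ± 0.11 (SE), while NFIB fell by 1.04 ± 0.13 (SE) and NFIA by 0.47 ± 0.13 (SE). SOX5, which works together with SOX6 and SOX9, fell by 1.04 ± 0.24 (SE) between days 21 and 30 (edgeR adjusted p = 0.00175). Between days 21 and 45 SOX5 and SOX6 were at -0.26 ± 0.24 and -0.22 ± 0.15 (SE), and neither passed (edgeR adjusted p = 0.376 and 0.22). SOX6 passed on log2(TPM + 1), at -0.60 (limma adjusted p = 0.0149), in a fit of only these days (edgeR adjusted p = 0.0418) and without day 30 replicates 3 to 5 (edgeR adjusted p = 0.0176). The last of these fits also called SOX5 (edgeR adjusted p = 0.0354).

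ADAMTS4 and ADAMTS5, proteases that cleave aggrecan and matrilins, fell between days 21 and 45, by 1.19 ± 0.16 (SE; edgeR adjusted p = 4.95e-06) and 3.09 ± 0.57 (SE; edgeR adjusted p = 1.86e-04). ADAMTS5 was at 0.176 ± 0.151 CPM at day 45 (SD, n = 5), against 1.51 ± 0.654 CPM at day 21 (SD, n = 4). ADAMTS1, a related protease, rose by 1.91 ± 0.17 (SE), to 15.8 ± 2.35 CPM at day 45 (SD, n = 5), against 4.19 ± 0.229 CPM at day 21 (SD, n = 4).

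Markers of other cell types were summed at the same days. The 7 hypertrophic cartilage markers summed to 104 to 204 CPM at day 21, 411 to 495 CPM at day 30 and 1657 to 4228 CPM at day 45. Of the 6 that were tested, 5 rose and 1 fell between days 21 and 45, where 27.1% of all tested genes rose and 30.5% fell. COL10A1, the collagen of hypertrophic cartilage, and PTH1R, a hormone receptor of prehypertrophic cells, carried the sum at day 45, with means of 1734 and 570 CPM. SPP1, the gene of osteopontin, went the other way, with means of 74.9, 33.7 and 18.1 CPM at the 3 days (-2.05 between days 21 and 45; edgeR adjusted p = 0.00241).

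The 4 Schwann cell markers, of a cell type known to make matrilin-2, summed to 104 to 150 CPM at day 21, 147 to 282 CPM at day 30 and 35.9 to 63.5 CPM at day 45, and all 4 fell between days 21 and 45. Nearly all of this sum was S100B, which cartilage cells also express, with means of 127, 207 and 47.1 CPM, while SOX10 averaged at most 0.384 CPM. The 3 tendon markers summed to 99.7 to 123, 52.3 to 74.8 and 45.9 to 59.4 CPM, and all 3 fell between days 21 and 45. The 7 markers of fibrous tissue summed to 30148 to 31789, 22861 to 32651 and 27595 to 36586 CPM, and 1 rose, 2 fell and 4 did not pass between days 21 and 45. For these counts, the shares of all tested genes were 27.1% called higher and 30.5% called lower.

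The remaining lists were low, and in most of them 1 gene carried the sum. The 4 neuron markers summed to 2.72 to 4.33 CPM at day 21, 10.3 to 18.1 CPM at day 30 and 6.42 to 10.1 CPM at day 45. Their sum was highest at day 30, as MATN1 and MATN4 were, but through SNAP25 alone (means of 2.65, 13.6 and 7.92 CPM). STMN2 went the other way, with means of 0.697, 0.192 and 0 CPM, and was called lower at day 45 than at day 21 (edgeR adjusted p = 3.87e-04). ELAVL4 and SYT1 were not tested. The 3 blood markers summed to 0.811 to 1.5, 5.34 to 12.6 and 45.4 to 64.9 CPM, through CD68, a lysosomal protein gene (means of 1.07, 8.08 and 53.3 CPM). The other blood markers, PTPRC and SPI1, averaged at most 0.0394 and 0.091 CPM at any day and were not tested. The 4 endothelial markers, with CDH5 at 0 throughout, summed to 23.9 to 32.3, 6.41 to 15.8 and 8.52 to 11.6 CPM, mostly KDR. TEK went the other way, with means of 0.202, 0.163 and 0.908 CPM. It was called higher at day 45 than at day 21 (2.15 ± 0.49, SE; edgeR adjusted p = 0.00124). The 4 skeletal muscle markers summed to 1.47 to 2.86, 6.41 to 11.5 and 8.45 to 18.8 CPM, mostly DES, while MYOD1 and MYOG averaged at most 0.0157 and 0.0584 CPM. The 3 pluripotency markers summed to 13.1 to 16.8, 3.65 to 6.15 and 0.353 to 1.31 CPM, mostly DPPA4. The 4 epithelial markers stood at 0.191 to 0.826 CPM over all libraries, with KRT14 called higher at day 45 than at day 21. The part of these cell types in the matrilin results was not tested.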

How the data were processed

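Per the submitters' processing notes, the authors aligned reads with STAR 2.4.2a to GRCh38 and counted them with RSEM 1.2.25; per the labels' protocols, a Rneasy micro kit gave the RNA and a TruSeq v2 kit, which does not mark strand, the libraries. The annotation release they used: not given in the sources used here. Per the file headers, the deposited tables hold expected counts, TPM, and the length and effective length of each gene; the expected counts were rounded to whole numbers for testing.

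Symbols were found for 60333 genes, and coordinates were taken from GENCODE 29. Genes were kept by filterByExpr, and libraries were scaled by TMM. One model with a mean per day over 14 libraries was tested with edgeR 4.0.16 (quasi-likelihood F-test, robust dispersions, Benjamini-Hochberg adjustment over 17838 genes); the SE is the log2 fold change divided by the square root of F. The test was tried on simulated data with known changes. Replicates of a day differed by more than sampling noise (chi-square per degree of freedom 7.81 to 172.87), and each library was counted once. Alternatives used DESeq2 1.42.0 and limma 3.58.1.

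The members and gene lists were chosen with earlier results of these data known. Named genes are the matrilins, genes overlapping them, at most 6 of each list (smallest adjusted p, days 21 and 45), members named for their role, and the 4 genes most alike to each matrilin.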

Additional observations from a re-analysis of the deposited data

Results flagged for a closer look

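Among the CPM and TPM values of the 4 matrilin genes at the 3 days (24 groups of libraries), 2 groups held a library far from the others, by Dixon's test; chance alone gives about 1 in 20 groups. MATN2 was at 19.6 CPM in day 45 replicate 2, above the other day 45 libraries at 10.2 to 11.4 CPM, with 521 expected counts. MATN3 was at 3365 TPM in day 45 replicate 1, the library whose treatment label reads 30 days, and at 2418 to 2652 TPM in the other day 45 libraries.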

How the results depend on the processing

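Over 428 combinations of a matrilin comparison and an alternative, 393 kept direction and side of the threshold. The calls of MATN1, MATN3 and MATN4 in the comparisons of day 30 with either other day held in all alternatives but the one named below for MATN3. For day 45 against day 21, MATN1 was called by DESeq2 (-0.58), limma on log2(TPM + 1) (-0.87) and on log2(TPM + 0.1) (-0.88) and voom with sample weights (-0.74), and MATN4 on both TPM scales (-0.63 each); over fits without 1 library MATN1 was at -0.84 to -0.34 (called without day 21 replicate 3 or day 45 replicate 4). The MATN2 call for day 45 against day 30 ended with DESeq2 size factors (-0.49), on the TPM scales (-0.43 and -0.48), with voom (-0.39), without a low-count filter (-0.46), with day 45 replicate 1 placed at day 30 (-0.32) and without day 30 replicates 3 to 5 (-0.58), and leave-one-out values were -0.70 to -0.42. For day 30 against day 21 MATN2 was called on the TPM scales (-0.61 and -0.66) and with voom (-0.55). Its later minus earlier change, not called at -0.16, was 0.18 on both TPM scales, 0.16 with voom and 0.12 with day 45 replicate 1 at day 30. The same placement gave MATN3 0.34 for day 45 against day 30, and the TPM scales gave its later minus earlier change as -0.70 each (limma adjusted p = 0.0856 and 0.0857). The cause of these differences was not tested.

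Genes called for day 45 against day 30 numbered 6466 with day 45 replicate 1 at day 30, in place of 10051, and for the later minus the earlier change 5659 without day 30 replicates 3 to 5, in place of 9404. On log2(TPM + 1) 19.8% of called genes were higher at day 45 than at day 21. Same-numbered libraries of different days had correlations of -0.25 to 0.12 in 13 pairs, so numbers were not used for pairing; with a replicate block no matrilin call changed, with MATN1 at 2.75 for day 30 against day 21 and MATN3 at 2.78 for day 45 against day 21. Of the named genes, 1145 of 1161 combinations were unchanged in call and direction. The genes nearest to MATN1, MATN3 and MATN4 shared 2 to 4 of 4 on log2(TPM + 1) or without day 30 replicates 3 to 5, alternatives chosen after seeing the data. MATN2 had the fewest counts, 261 to 1047 a library, yet its SEs (0.20 to 0.21 between days) were below those of MATN1 (0.26 to 0.29).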
